A study of Mus musculus with 61 samples.

Results

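The opioid system of the mouse brain was followed through 7 genes, the 3 peptide precursors Penk, Pdyn and Pnoc and the 4 receptors Oprm1, Oprd1, Oprk1 and Oprl1. They were chosen by name, and each was read through its array probe with the highest mean intensity. They are 7 of 16143 genes that could be named through RefSeq and had a probe measured on all arrays. Whole brains of 6 male C57BL/6J mice, 8 weeks old and perfused with RNAlater, had been cut into slabs, called fractions, of 1 mm (200 sections of 5 µm). Each fraction was hybridized to its own one-color Agilent whole mouse genome array, giving 61 arrays. The mice were anesthetized for the perfusion and no other treatment is given, so the compared conditions are positions in the brain. A mouse gave 1 series: S (9 fractions) and So (10) were cut in the sagittal plane from left to right, C (13) and Co (16) in the coronal plane from posterior to anterior, and H (6) and Ho (7) in the horizontal plane from dorsal to ventral. The planes of So, Co and Ho were slightly oblique. The sample labels count each S fraction 1 higher than the names used here. A fraction is a mixture of all regions that its slab crossed, and in such bulk samples fewer cells of a type and less RNA per cell cannot be told apart.

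Opioid peptides are cut from large precursor proteins and act on G protein coupled receptors that mostly inhibit neurons. Penk encodes proenkephalin, the source of enkephalins, which bind best to the delta receptor (Oprd1) and the mu receptor (Oprm1). Pdyn encodes prodynorphin, whose dynorphins prefer the kappa receptor (Oprk1), and Pnoc encodes prepronociceptin, whose product nociceptin binds the nociceptin receptor (Oprl1). In the striatum, enkephalin marks neurons of the indirect pathway and dynorphin those of the direct pathway. The mu receptor is the main target of morphine.

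The genes lie on chromosome 4 at 4133536 to 4138815 (Penk), chromosome 2 at 129686549 to 129699938 (Pdyn), chromosome 14 at 65400673 to 65425564 (Pnoc), chromosome 10 at 6758593 to 7038209 (Oprm1), chromosome 4 at 132110188 to 132144486 (Oprd1), chromosome 1 at 5588450 to 5606134 (Oprk1) and chromosome 2 at 181715000 to 181720985 (Oprl1), in RefSeq coordinates of GRCm38.p6. Penk, Pnoc and Oprl1 had 2 probes each and the others had 1. The probes of Penk, Pdyn, Pnoc, Oprk1 and Oprl1 were well above background on all 61 arrays. That of Oprm1 was well above background on 19 arrays and that of Oprd1 on 2, and the values of these receptors elsewhere are read as bounds rather than levels. All levels below are log2 intensities relative to the 75th percentile of the array, and they compare fractions of 1 gene, not genes with each other.

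The arrays had 57.9 to 73.1% of their probes well above background. They lay on 16 slides and were scanned on 5 days. S and So, apart from S1, and C and Co were scanned on different days, whereas H and Ho shared a day. Markers of 9 brain regions, such as Pde10a for the striatum, Pcp2 for the cerebellum, Hoxb5 for the medulla and Eomes for the olfactory bulb, picked the fraction richest in each region. In the coronal mice those of the cerebellum picked C3 and Co5 and those of the olfactory bulb C13 and Co15. Slabs of the other planes often served several regions, as S2, So3 and H2 did for the hippocampus and the cerebellum, so a picked fraction is not that region alone.

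Penk, the proenkephalin gene, ran through a trough and a summit along the posterior to anterior axis. In the C mouse it was at 6.05 in the first fraction, at its lowest in C6 (3.67) and at its highest in C10 (6.65), with a median of 5.70 over the 13 fractions. The Co mouse had the same course, from 6.02 in Co1 to 3.81 in Co7 and 6.84 in Co11, with a median of 5.53. This was a 7.90-fold range in C and an 8.18-fold range in Co. In the horizontal plane the dorsal fractions were low and the ventral ones high, with 4.04 in H2 and 6.66 in H6, and with 4.07 in Ho2 and 6.44 in Ho6. In the sagittal plane Penk was lowest toward the left edge, with 4.20 in S1 and 4.36 in So2, and highest in S7 (6.24) and So8 (6.44). Another summit lay further left, at S4 (6.12) and So4 (6.11), with a dip between the summits to 5.50 in S6 and 5.43 in So6. The medians were 5.55 in S, 5.83 in So, 5.85 in H and 5.75 in Ho. The second Penk probe peaked in the same fraction in 6 of 6 mice and followed the first with r = 0.992 over the 61 fractions.

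Pdyn, the prodynorphin gene, had the widest range of the members over the 61 fractions, from −0.60 in Co5 to 4.62 in H6. In the coronal mice Pdyn was lowest at −0.50 in C4, next to the cerebellum fraction C3, and at −0.60 in Co5, the cerebellum fraction of Co. It was highest there in the anterior fractions C10 (4.41) and Co12 (4.22). The range was 30.2-fold in C around a median of 1.99 and 28.3-fold in Co around a median of 1.77. In the sagittal plane the range was 1.51-fold in S (from 2.86 to 3.46, median 3.19) and 2.00-fold in So (from 2.79 to 3.80, median 3.29). H ran from 2.25 in H2 to 4.62 in H6 with a median of 3.05, and Ho from 2.85 in Ho4 to 3.89 in Ho6 with a median of 3.26. H6, the highest fraction of Pdyn, was also the highest of 3 of 6 pituitary markers (Gh, Cga and Tshb), while Prl was highest in C8, Lhb in S2 and Pou1f1 in S5. In H6, 5 of the 6 were well above background. Their part in the Pdyn level was not tested, and C10 and Co12 reached similar levels with mean pituitary marker levels of −4.30 and −4.60, against −1.84 in H6.

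Pnoc, the prepronociceptin gene, was highest at the most posterior end of the brain, at 1.58 in C1 and 2.28 in Co1. It dropped to −0.16 in C3, the cerebellum fraction of C, and to 0.03 in Co4, next to the cerebellum fraction Co5. It returned to 1.21 in C5 and 1.44 in Co6. The medians were 0.78 in C and 0.94 in Co. In the sagittal plane Pnoc was highest in the middle of the series, at 1.19 in S5 and 1.17 in So6, and low in S2 (0.17) and So3 (0.16), around medians of 0.51 and 0.71. In the horizontal plane it was highest in H5 (1.29) and Ho6 (1.19) and lowest in H2 (0.44) and Ho2 (0.38), with medians of 0.75 and 0.77. Pnoc was thus highest in posterior, middle sagittal and ventral fractions, whereas the coronal summits of Pdyn and Penk lay anterior.

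**Figure D1:**
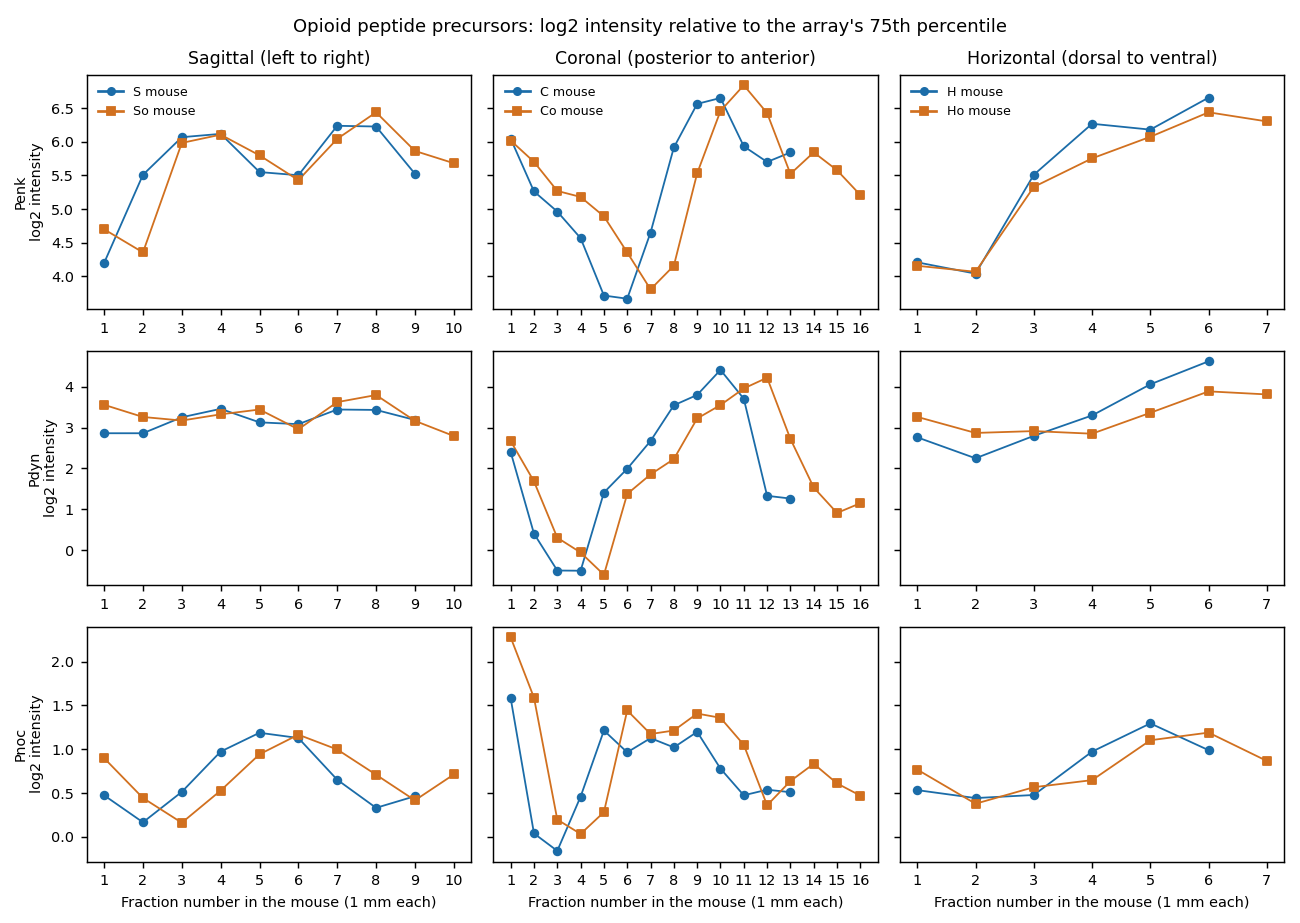
Log2 intensity of Penk, Pdyn and Pnoc (y axis, relative to the 75th percentile of each array) in every fraction (x axis, fraction number in the mouse), with 1 line per mouse and 1 column per plane. Penk and Pdyn have an anterior summit at C10 and at Co11 or Co12, whereas Pnoc is highest in C1 and Co1.

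Oprl1, the nociceptin receptor gene, had the same peak fraction as Pnoc in 6 of 6 mice. It was highest in S5 (1.65), So6 (1.5), C1 (1.78), Co1 (2.08), H5 (1.70) and Ho6 (1.58). Its lowest fractions were S2 (0.83), So3 (0.78), C13 (0.28), Co15 (0.52), H1 (0.79) and Ho1 (0.64). The low fractions of the coronal mice were thus anterior, while those of Pnoc lay at or next to the cerebellum fractions. The medians were 1.12, 1.19, 1.31, 1.42, 1.16 and 1.19 in the order S, So, C, Co, H and Ho. The second Oprl1 probe followed the first with r = 0.684 only, and it peaked in the same fraction in S, C and H but in So3, Co10 and Ho5 in the other mice. The second Pnoc probe (r = 0.991) peaked in S6 instead of S5 and otherwise in the same fractions as the first.

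Oprk1, the kappa receptor gene, had its coronal summit beside those of Pdyn and Penk. It was highest in C10 (−1.99) and Co12 (−1.43) and lowest in C12 (−5.16) and Co14 (−4.41), which lay 2 fractions further anterior. The medians were −3.31 in C and −2.99 in Co. The steepest gradient was dorsal to ventral, from −5.49 in H1 to −1.58 in H5 and from −5.55 in Ho1 to −1.62 in Ho6, which are ranges of 15.1-fold and 15.3-fold around medians of −2.29 and −2.59. In the sagittal plane S ran from −2.75 to −1.98 (median −2.54) and So from −4.05 to −2.16 (median −2.44).

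Oprm1, the mu receptor gene, was well above background in 2 fractions of S, none of So, 4 of C, 7 of Co and 3 each of H and Ho. These were S5 and S6, C1, C5, C7 and C10, Co6 to Co12, H4 to H6, and Ho4 to Ho6. The highest fractions were S5 (−5.27), So7 (−5.85), C1 (−6.05), Co9 (−5.71), H5 (−5.58) and Ho6 (−5.88). The dorsal fractions H1 (−8.89) and Ho1 (−8.52) were the lowest of their mice and were not well above background. The medians ran from −7.23 (So) to −6.15 (S).

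Oprd1, the delta receptor gene, was well above background only in C10 and Co9. Its value was −6.78 in C10 and −5.76 in Co9, and the next highest fraction of Co was Co12 with −6.92. The other values lay between −9.04 in Co5 and −6.77 in C13, the latter not well above background, so that fractions with and without detection overlapped. No peak of Oprd1 is read from these arrays.

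**Figure D2:**
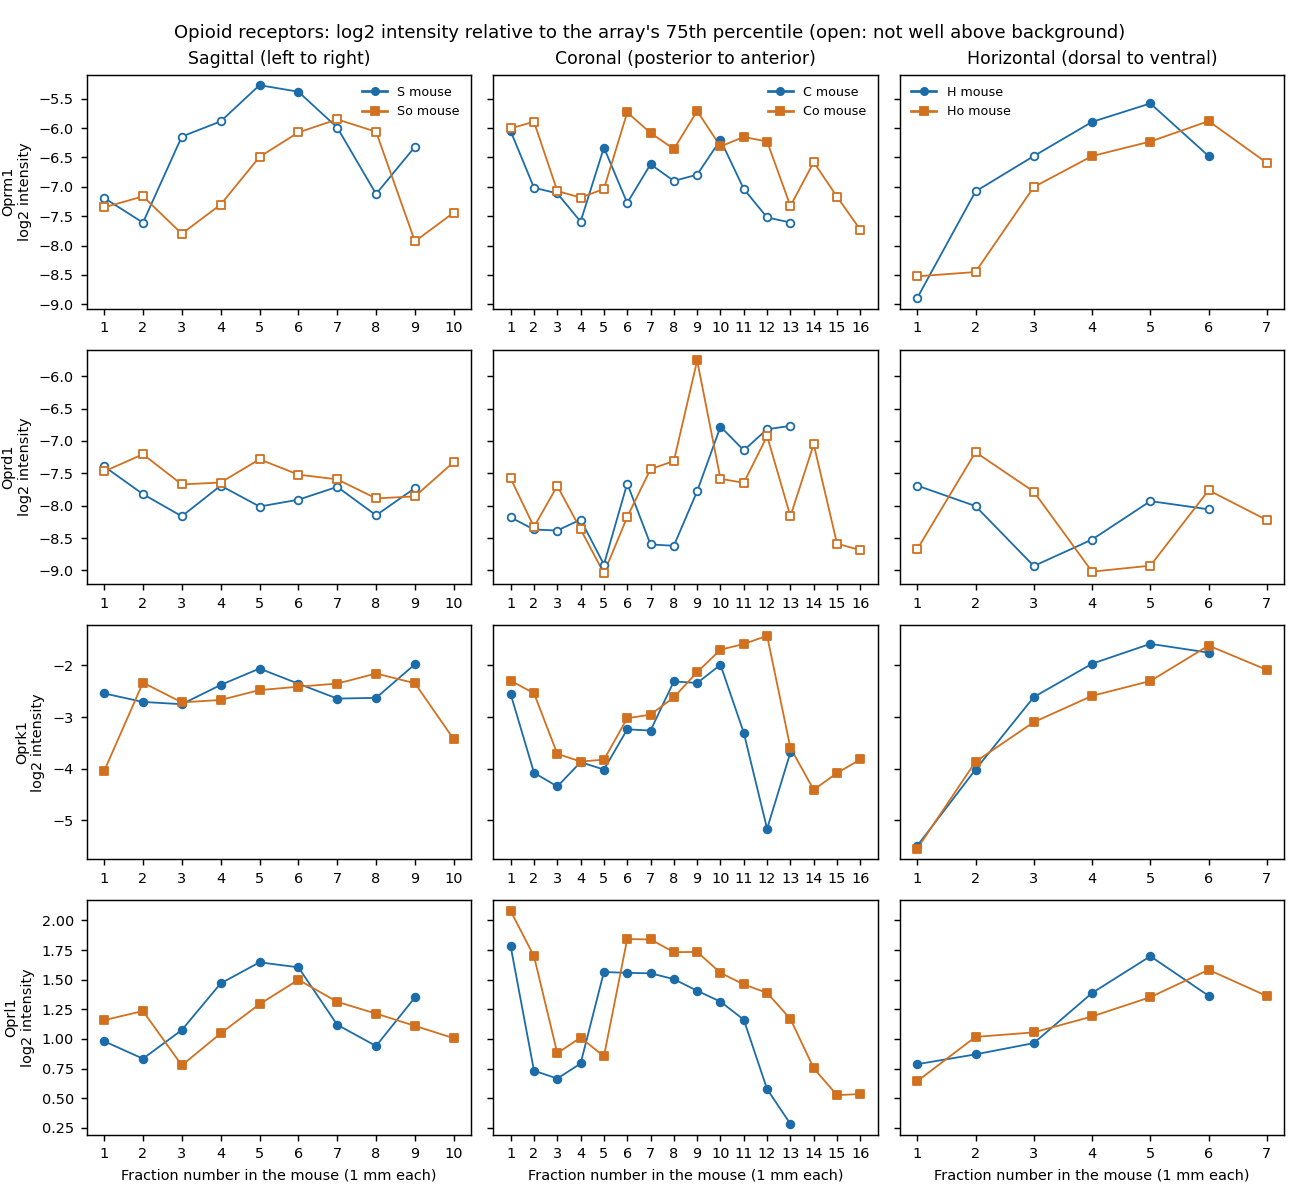
Log2 intensity of the 4 receptor genes (y axis, relative to the 75th percentile of each array) in every fraction (x axis, fraction number in the mouse), with 1 line per mouse; open symbols mark fractions not well above background. Oprk1 climbs from the dorsal H1 and Ho1 to H5 and Ho6, and the values of Oprd1 are nearly all open symbols.

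A test over 28 pairs of matching fractions asked whether a member varied with position beyond the spread between partner fractions. A pair held 1 fraction from the S, C or H mouse and its partner from the So, Co or Ho mouse. Fractions of 1 mouse counted as independent, so the p values do not measure position against a spread over the 6 mice. The pairs are those of the study's methods, which matched fractions by the correlation of these same arrays, so partners resemble each other by choice. Of the 7 members, 6 varied over the pairs (limma's moderated F test, Benjamini-Hochberg adjustment over all probes), beside 61.1% of all 35969 tested probes. A call alone therefore sets the members little apart. F was 48.9 for Pdyn (adjusted p = 9.15e-16), 21.7 for Pnoc (1.39e-11), 18.1 for Penk (1.06e-10), 12.0 for Oprl1 (1.18e-08), 6.60 for Oprk1 (6.15e-06) and 5.41 for Oprm1 (4.13e-05). Oprd1 missed the threshold with F = 1.74 (adjusted p = 0.104). For the members detected on all arrays, the span from the lowest to the highest fraction (log2) was 5.23 for Pdyn, 4.12 for Oprk1, 3.17 for Penk, 2.44 for Pnoc and 1.80 for Oprl1, beside a median of 2.15 over all tested probes. Restricted to the sagittal pairs, adjusted p values were 0.469 for Pdyn, 1 for Oprk1, 0.090 for Oprl1 and 0.074 for Oprm1, so these calls were lost, and with the coronal pairs alone it was 0.129 for Oprm1. The F of Oprl1 rested on its brighter probe, and with the second probe it was 1.45 (adjusted p = 0.212).

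Ordered by the mean of each pair, Pdyn was highest in H6 and Ho7 (4.22), and C10 and Co11 (4.18), H5 and Ho6 (3.97) and C11 and Co12 (3.96) lay within the SD between partners of 0.26. The lowest Pdyn pair was C4 and Co5 (−0.55), 27.3-fold lower. Penk led in C10 and Co11 (6.75), ahead of C9 and Co10 (6.51) and H6 and Ho7 (6.48) by less than its partner SD of 0.28, and was lowest in C6 and Co7 (3.74). Pnoc led in C1 and Co2 (1.59) by more than its partner SD of 0.12 over the next pair, C5 and Co6 (1.33), and was lowest in C3 and Co4 (−0.06). Oprl1 led in the same pair C1 and Co2 (1.74), but C5 and Co6 (1.70), C6 and Co7 (1.70), C7 and Co8 (1.64), H5 and Ho6 (1.64) and C8 and Co9 (1.62) lay within its partner SD of 0.14. Oprk1 led in H5 and Ho6 (−1.60) and was lowest in C12 and Co14 (−4.79), and the pairs C10 and Co11 (−1.79), H6 and Ho7 (−1.92) and C9 and Co10 (−2.02) lay within its partner SD of 0.48 of the lead. The highest pair means of Oprm1 were those of S6 and So7 (−5.62), S5 and So6 (−5.67), H5 and Ho6 (−5.73), C1 and Co2 (−5.97), S7 and So8 (−6.03) and C5 and Co6 (−6.03). Of these fractions So6, So7, So8, S7 and Co2 were not well above background, so no leading pair is read for Oprm1. Of the 27 steps between neighbors in this order, 7 exceeded the partner SD for Pdyn, 4 for Pnoc, 3 for Penk, 2 for Oprl1 and 1 for Oprk1. Oprm1 and Oprd1 are left out of this count, since most of their values were not well above background.

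How closely partner mice followed each other differed between members and planes. Over the 13 coronal pairs r between the mice was 0.976 for Pdyn, 0.974 for Oprl1, 0.955 for Pnoc, 0.935 for Penk, 0.840 for Oprk1 and 0.659 for Oprm1. Oprd1, detected on 2 arrays, is left out here. Over the 9 sagittal pairs it was 0.959 for Pnoc, 0.872 for Penk, 0.855 for Oprm1 and 0.737 for Oprl1, but 0.305 for Pdyn and −0.468 for Oprk1. Over the 6 horizontal pairs it ran from 0.847 for Penk to 0.989 for Oprl1 among the members detected on all arrays. For Oprm1 it was 0.997 there. The r of Oprm1 in each plane rests largely on values not well above background. Its probe was detected on 19 arrays and in 0 fractions of So. How closely its levels followed each other between partner mice is therefore not read from these r.

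Fractions rich in a region were then picked in each mouse by marker genes that include no member, and each member was compared there with the mean of the other fractions of the mouse. The difference was tested over the 6 mice with limma, adjusted over all tested probes. No tested probe was called in the striatum fractions (0%), so the design could not separate any gene there after adjustment, although 4100 probes and 3 members had an unadjusted p under 0.05. The members' values were of size: Pdyn was higher by 1.21 ± 0.80 (SD, n = 6 mice, adjusted p = 0.204) and Penk by 1.15 ± 0.33 (adjusted p = 0.128), both in 6 of 6 mice, and Oprk1 by 1.01 ± 0.69 (adjusted p = 0.210) in 5 of 6. For Penk the difference ran from 0.64 in S to 1.51 in Co. For Pdyn it ran from 0.27 in S to 2.17 in Co. Oprl1 was at 0.15 ± 0.27. Oprm1 was at 0.38 ± 0.77, with the mice spread from −0.90 in S to 1.33 in Ho and its probe detected in 3 of the 6 fractions.

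In the medulla fractions Penk rose by 0.76 ± 0.31 (SD, n = 6 mice, 1.69-fold, limma's adjusted p = 0.032) in 6 of 6 mice, beside 2.66% of all tested probes called there. Oprm1 was called too, at 0.91 ± 0.29 (adjusted p = 0.018), with the same sign in 6 of 6 mice. By mouse, the Penk difference was 0.52 (S), 0.89 (So), 0.76 (C), 0.30 (Co), 0.95 (H) and 1.16 (Ho), lowest in Co. Oprm1 was well above background in only 3 of the 6 medulla fractions. Its 0.91 thus compares values partly near background and is no measured size, and no fold is given for it. Oprk1 (0.80 ± 0.54), Pnoc (0.44 ± 0.32) and Oprl1 (0.36 ± 0.22) were also higher in 6 of 6 mice and missed the threshold, with adjusted p of 0.092, 0.112 and 0.090. In 4 of the 6 mice the medulla fraction was also picked for another region, in So and Ho for the striatum. Only C1 and Co2 were picked for no other region, and they too are mixtures of all that their slabs crossed. Without any 1 mouse the call for Penk was lost except without Co (adjusted p of 0.084 to 0.091 where lost), and that for Oprm1 was lost without each of the 6 (0.058 to 0.065). The Penk call was also lost without moderation (0.068) and with the top 2 marker fractions (0.61, adjusted p = 0.077). The Oprm1 difference was 0.11 (adjusted p = 0.162) with normexp background correction and quantile normalization. With only probes detected on all arrays, which leaves fewer markers to pick the fraction, the sign turned for all 5 members tested, to −0.52 for Penk (adjusted p = 0.801), −0.57 for Oprk1, −0.35 for Pdyn, −0.26 for Pnoc and −0.22 for Oprl1.

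In the cerebral cortex fractions Pnoc fell by 0.29 ± 0.19 (SD, n = 6 mice, limma's adjusted p = 0.048) and was lower in 6 of 6 mice, beside 20.9% of tested probes called. The adjusted p was over 0.05 without each of S, So, C, Co and H (0.099 to 0.117), 0.051 with arrays scaled to their median, 0.052 with the authors' table, 0.057 with all probes and 0.064 without moderation. It was 0.101 with the second probe, 0.143 with the first marker alone and 0.163 with only probes detected on all arrays. The cortex fractions of the horizontal mice were the dorsal H1 and Ho1, and Oprk1 there was at −3.11 in H and −2.95 in Ho, whereas in C and Co it was higher by 0.10 and 1.65. Pdyn in the cortex fractions was higher in C (1.85) and Co (2.45) and at or below the other fractions in the sagittal and horizontal mice, down to −0.64 in H. Oprd1 was not well above background in any cortex fraction, so no difference is read for it there. Its values near background passed with arrays scaled to their median (limma's adjusted p = 0.011), with the authors' table, with the top 2 fractions and without Ho. The coronal cortex slabs, C11 and Co12, lay at or next to the coronal summit of Pdyn.

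None of the 7 members was called in the 6 other regions (limma, adjusted over all probes). The share of all tested probes called was 4.13% in the hippocampus fractions, 0.106% in those of the thalamus, 0.0612% in the hypothalamus, 0.136% in the midbrain dopamine area, 0.0556% in the cerebellum and 0.0139% in the olfactory bulb. An unadjusted p under 0.05 was reached by 2 members and 9702 of the 35969 probes in the hippocampus fractions, by 4 members and 4527 probes in the thalamus and by 6 members and 3155 probes in the hypothalamus. The counts were 4 members and 6414 probes in the midbrain dopamine area, 5 and 7194 in the cerebellum, and 1 and 4858 in the olfactory bulb. In the hypothalamus fractions all members but Oprd1 were higher in 6 of 6 mice. The differences were 1.00 for Pdyn, 0.93 for Oprk1, 0.71 for Penk, 0.37 for Pnoc and 0.33 for Oprl1. That of Oprm1 (0.71) is no measured size, since its probe was well above background in 3 of these 6 fractions. It was 0.13 with normexp and quantile normalization. With its second probe Oprl1 was at 0.13. In 5 of 6 mice the hypothalamus fraction was also picked for another region. H6 and Ho6 were the striatum fractions too, so these values are partly the same as those of the striatum. In the cerebellum fractions Pdyn, Pnoc, Oprk1 and Oprl1 were lower in 6 of 6 mice, by means of −1.27, −0.58, −0.61 and −0.40, but the second Oprl1 probe was at 0.10 (adjusted p = 0.746), and in S, So and H these were also the hippocampus fractions. Penk was at −1.05 ± 0.92 in the hippocampus fractions. Among the values that passed under alternatives were Pnoc in the hypothalamus fractions under 4 (adjusted p of 0.019 to 0.038) and Oprl1 in the midbrain dopamine fractions under 3 (0.031 to 0.038). The Oprl1 difference in the midbrain dopamine fractions was 0.39 with the main probe and 0.12 (limma's adjusted p = 0.406) with the second.

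**Figure D3:**
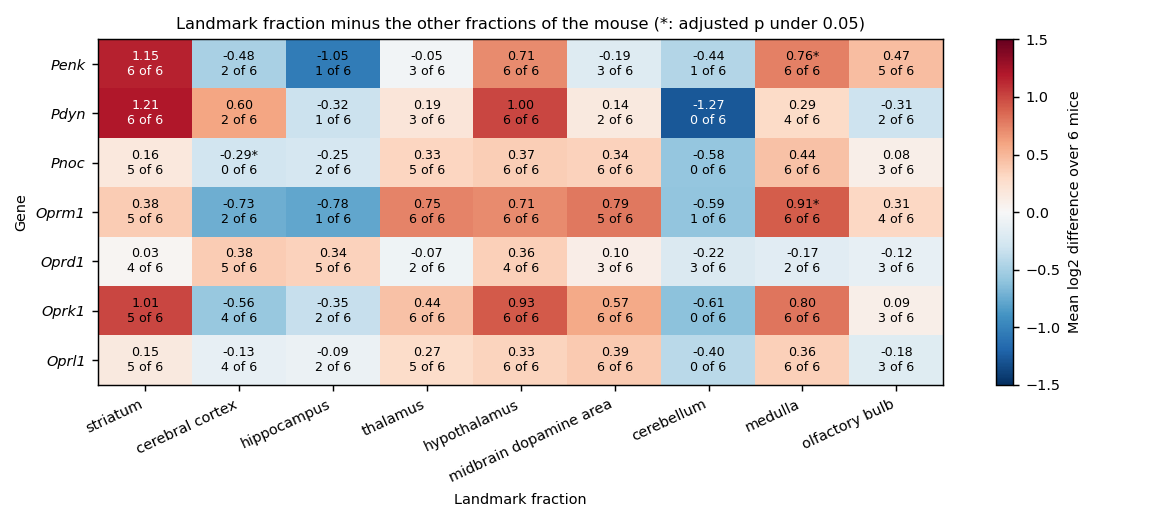
Mean log2 difference of each member (rows) between the fraction picked for a region (columns) and the other fractions of the mouse, with the number of the 6 mice in which it was higher; asterisks mark an adjusted p under 0.05. The calls are Penk and Oprm1 in the medulla fractions and Pnoc in the cortex fractions, and the striatum column holds the large uncalled values of Pdyn (1.21), Penk (1.15) and Oprk1 (1.01).

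The peaks of the peptides were next set against the receptors, in the same way but with the fraction in which the precursor was highest. At the Pnoc peaks, Oprl1 rose by 0.58 ± 0.16 (SD, n = 6 mice, 1.49-fold, limma's adjusted p = 0.016) in 6 of 6 mice, beside 5.30% of all tested probes called. Oprm1 was called too, at 1.06 ± 0.30 (adjusted p = 0.011), with the same sign in 6 of 6 mice. The Oprl1 difference was 0.48 (S) and 0.37 (So) in the sagittal mice, 0.69 (C) and 0.81 (Co) in the coronal and 0.62 (H) and 0.48 (Ho) in the horizontal ones. For Oprm1 the differences were 1.18, 0.97, 0.95, 0.57, 1.38 and 1.33 in the same order, lowest in Co. Oprm1 was well above background in 4 of the 6 peak fractions and in few of the fractions they are set against, in none of So. Its 1.06 thus compares values partly near background and is no measured size, and no fold is given for it. Oprk1 was higher by 0.93 ± 0.56 in 6 of 6 mice and missed the threshold (adjusted p = 0.051). Oprd1 was well above background in 0 of the 6 peak fractions, so no difference is read for it.

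The Oprl1 call was lost without S (adjusted p = 0.051), H (0.060) or Ho (0.063) and with the second probes of both Oprl1 and Pnoc, which also moves the Pnoc peak of S to S6 (0.24, adjusted p = 0.172), and the Oprm1 call without H (0.051) or Ho (0.055). With normexp background correction and quantile normalization together, the Oprm1 difference was 0.19 (adjusted p = 0.031), and Oprk1 passed the threshold (0.64, adjusted p = 0.034). Oprk1 also passed with only probes detected on all arrays (0.93, limma's adjusted p = 0.020). The mean level of the blood markers Hba-a1 and Alas2 was 0.85 to 2.48 in the Pnoc peak fractions and −0.47 to 2.24 in the others, and was highest in C1. It was also high, at 2.24, in Co16, where Pnoc was at 0.47 and Oprl1 at 0.53. The part of blood in the Pnoc and Oprl1 peaks was not tested. Choroid plexus markers ranged from −3.46 to 1.23 in the peak fractions and from −4.07 to 2.38 elsewhere.

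No tested probe was called at the Penk peaks or at the Pdyn peaks (0% each), with 2728 and 2709 probes at an unadjusted p under 0.05. Of the members, 3 at the Penk peaks and 4 at the Pdyn peaks had an unadjusted p under 0.05. Oprk1 was higher by 1.07 ± 0.73 at the Penk peaks, in 5 of 6 mice (adjusted p = 0.463), and by 1.14 ± 0.65 at the Pdyn peaks, in 6 of 6 mice (adjusted p = 0.400). At the Pdyn peaks the value was 1.65 in Co, 1.63 in Ho, 1.53 in C, 1.38 in H, 0.60 in So and 0.08 in S. The sagittal mice were thus the low ones. In S the Pdyn peak S4 (3.46) was nearly level with S7 (3.44), the Penk peak of S, where the Oprk1 difference was −0.22. Oprl1 was at 0.16 ± 0.20 at the Penk and 0.22 ± 0.15 at the Pdyn peaks. Oprm1 was at 0.70 ± 0.41 at both, but it was detected in 4 of 6 peak fractions of each and in 0 of So, and with normexp and quantile normalization its values were 0.08 and 0.11. The classical partner of enkephalin, Oprd1, could not be placed, being above background in 1 of 6 peak fractions of Penk.

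**Figure D4:**
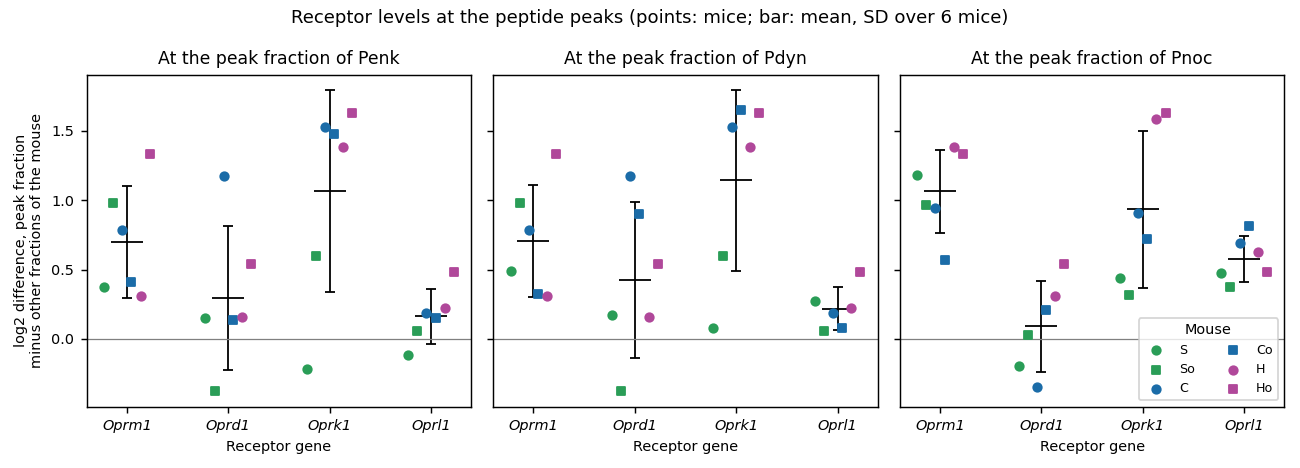
Log2 difference of each receptor gene (x axis) between the peak fraction of a peptide precursor and the other fractions of the mouse (y axis); points are mice, and the bar is the mean with the SD over 6 mice. At the Pnoc peaks the 6 mice lie between 0.37 and 0.81 for Oprl1, whereas the values of Oprk1 at the Pdyn peaks spread from 0.08 to 1.65.

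Peptide and receptor profiles were also compared along each mouse, as a description, since neighboring fractions share tissue and slides. For the brighter probes of Pnoc and Oprl1 the peaks were 0 fractions apart in all 6 mice, and r over the fractions was 0.929 (S), 0.824 (So), 0.822 (C), 0.801 (Co), 0.976 (H) and 0.632 (Ho), over 6 to 16 fractions of a mouse. For Pnoc and Oprm1 the median r was 0.725, from 0.610 to 0.914, and 4 of 6 peaks coincided. In Co their peaks were 8 fractions apart. For Pdyn and Oprk1 the median r was 0.593, and it was 0.780 in C and 0.833 in Co but −0.024 in S. Their peaks coincided in 4 of 6 mice and were 5 fractions apart in S. There the Pdyn peak S4 (3.46) was nearly level with S7 (3.44) and S8 (3.43), and the Oprk1 peak S9 (−1.98) with S5 (−2.06). The distance of 5 therefore rests on near ties. With other receptors, the median r of Pdyn was 0.562 for Oprl1 and 0.493 for Oprm1. Penk and Oprk1 had a median r of 0.447, and 5 of 6 of their peaks were at most 1 fraction apart. Penk and Oprm1 had a median r of 0.256, with 0.185 in C and 0.053 in Co but 0.974 in Ho. The precursors Penk and Pdyn had a median r of 0.588 and coinciding peaks in 4 of 6 mice, whereas Penk and Pnoc had a median r of 0.064, with peaks 9 fractions apart in C and 10 in Co.

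Among the receptors, Oprm1 and Oprl1 had r from 0.758 to 0.907. All r that involve Oprm1 rest largely on values not well above background, since its probe was detected on 19 of 61 arrays and in 0 fractions of So, so they do not describe measured levels there. Oprk1 and Oprl1 had r from 0.320 to 0.974.

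**Figure D5:**
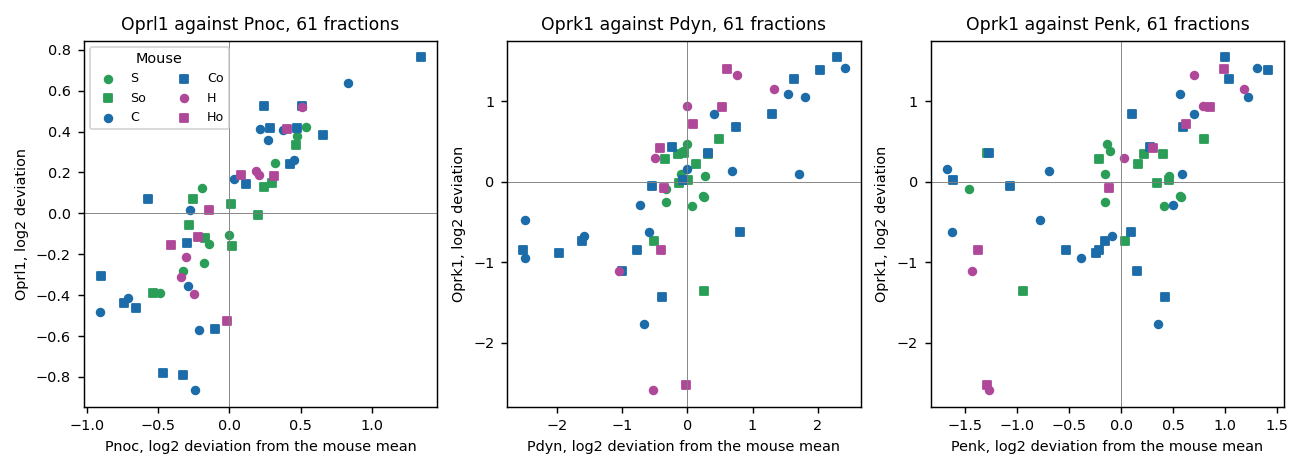
Deviation of a receptor gene (y axis) from its mean in the mouse against that of a peptide precursor (x axis), in log2, for 61 fractions of 6 mice. Oprl1 climbs with Pnoc in all 6 mice (r from 0.632 to 0.976 within a mouse), and the spread of Oprk1 against Penk is wider (r from −0.176 to 0.920).

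Because Oprl1 and Oprm1 were the receptor genes called at the Pnoc peaks, the 250 bases before a start of each gene are shown, from the RefSeq promoters of GRCm38.p6. Entries were found for Pdyn, Oprm1, Oprd1 and Oprl1. For Oprl1 this is chr2:181714766-181715015 on the plus strand, the first of its 3 starts listed, and for Oprm1 chr10:6788320-6788569 on the plus strand, the second of its 3 starts listed. Capitals mark matches, on either strand, to the E-box CANNTG, the only 1 of 4 motifs found in them. The others were the GC box GGGCGG, the CRE half-site TGACG and the AP-1 site TGANTCA.
Oprl1: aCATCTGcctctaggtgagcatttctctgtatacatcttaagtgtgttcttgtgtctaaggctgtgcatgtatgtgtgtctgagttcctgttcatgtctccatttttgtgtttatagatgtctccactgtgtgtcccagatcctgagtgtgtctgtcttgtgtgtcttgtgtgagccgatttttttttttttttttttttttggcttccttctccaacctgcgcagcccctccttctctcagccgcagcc
Oprm1: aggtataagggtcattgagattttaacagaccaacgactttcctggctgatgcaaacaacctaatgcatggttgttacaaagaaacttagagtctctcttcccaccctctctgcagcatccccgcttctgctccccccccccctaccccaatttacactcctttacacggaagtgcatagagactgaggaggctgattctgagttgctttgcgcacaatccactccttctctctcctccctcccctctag
The printed Oprl1 stretch holds 1 E-box and the printed Oprm1 stretch 0, and those before the other Oprl1 starts hold 0 and 4, while 66.2% of all 32851 promoter stretches of this length hold at least 1. GC boxes occur in 32.7% of all stretches, CRE half-sites in 17.8% and AP-1 sites in 6.75%, and Oprl1 and Oprm1 have 0 of each in these windows.

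The 2 mice of a plane differed in the level of some members, tested with the 28 pairs in the model. Each series is 1 animal and its fractions, which are not independent, stand as the replicates, so the SE and p values compare these 2 brains and not kinds of mice. Of the members, 1 differed between So and S, beside 30.0% of tested probes, 4 between Co and C, beside 53.3%, and 0 between Ho and H, beside 5.39%. The estimate for Oprm1 was −0.58 ± 0.13 (SE, limma's adjusted p = 0.0015) in So against S. Its probe was well above background in 0 of 10 So and 2 of 9 S fractions, so this call gives no difference in level. In Co against C the Oprm1 estimate was 0.50 ± 0.11 (adjusted p = 0.00036), with detection in 7 of 16 Co and 4 of 13 C fractions. It too rests largely on values not well above background. In Co, Oprk1 was 0.48 ± 0.17 higher than in C (adjusted p = 0.015), Oprl1 0.18 ± 0.04 higher (0.00083) and Pnoc 0.14 ± 0.04 higher (0.0054). With the slide as a random block the adjusted p was 0.171 for Oprk1 and 0.060 for Pnoc in Co against C, and 0.072 for Oprm1 in So against S, so these calls were lost. With normexp and quantile normalization the Oprm1 difference between So and S was −0.04 (adjusted p = 0.480), that between Co and C was 0.09 (0.013), and the Oprl1 call was lost (0.10, adjusted p = 0.112). With second probes the signs of Co against C turned, to −0.45 for Oprl1 (adjusted p = 5.22e-07) and −0.26 for Pnoc (1.6e-05), so that each gene was called in opposite directions by its 2 probes. The mouse, the cutting angle and, outside the horizontal plane, the scan day cannot be told apart in these differences.

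Genes that make, break down and relay opioid peptides were read from lists. Of 5 genes of prohormone processing, 4 varied over the pairs (adjusted p under 0.05 in the same F test, with 61.1% of all probes as background). Pcsk2, which cleaves all 3 precursors, had F = 40.3 (adjusted p = 9.82e-15) and was lowest in C4 (3.54) and highest in So1 (5.82). Cpe, carboxypeptidase E, which trims the cut peptides, had F = 7.71, and Pcsk1n missed the threshold with 1.44 (adjusted p = 0.218). Of 5 peptidase genes 3 varied. Mme, neprilysin, which degrades enkephalins, had F = 6.70, with its lowest level in Ho1 and its highest in C9. Ace had F = 4.52 and Npepps 0.53 (adjusted p = 0.977).

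Among the relays, 3 of 5 inhibitory G protein genes varied, Gnaz (F = 13.0) and Gnai3 (6.15) the most and Gnai1 (0.90) the least. Of 4 GIRK channel genes, whose potassium channels are opened by opioid receptors, 2 varied: Kcnj6 (F = 8.43) and Kcnj9 (5.47), while Kcnj5 (1.31) was well above background on 2 arrays only. Of 10 genes of receptor regulation 8 varied, Rgs4 with F = 30.8 and Rgs20 with 23.3, whereas the arrestin gene Arrb2 had 1.35. All 7 adenylyl cyclase genes varied, from Adcy1 (26.2) and Adcy5 (18.4) down to Adcy3 (2.18). Adcy5, the cyclase known for the striatum, was highest in C10 (3.38), the fraction in which Penk, Pdyn and Oprk1 peaked in C. The striatum markers picked the neighboring fraction C9 in this mouse. The calcium channel gene Cacna1a did not pass (1.63, adjusted p = 0.138).

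Pomc, the precursor of beta-endorphin, which neurons of the arcuate nucleus and the pituitary make, varied with F = 9.72 (adjusted p = 1.15e-07). It was highest in H6 (2.84) and Ho7 (1.87), the most ventral fractions, against a median of −0.40. The pituitary gene Cga was highest in the same 2 fractions (0.19 and −1.05, median −7.05), and its part in the Pomc level was not tested.

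The genes most like each member were found by r over the 61 fractions after the mean of each mouse was removed, among 12803 genes detected on at least 31 of the arrays. Nearest to Penk were Slc35d3 (r = 0.897), Rarb (0.890) and Serpina9 (0.883). Nearest to Pdyn were Gpr83 (0.946), Dclk3 (0.925) and Prkar2b (0.917), and nearest to Pnoc Hdac11 (0.861), Tmem130 (0.833) and Entpd2 (0.830). Oprk1 had Drd2 (0.823), the dopamine receptor gene of indirect pathway neurons, Mme (0.806) and Nts (0.794), the neurotensin gene. Oprl1 had Minar2 (0.936), Best1 (0.912) and Rwdd2a (0.907), and Oprm1 had Tmem130 (0.823), Ahi1 (0.823) and AW551984 (0.822). For Oprd1, whose values were well above background on 2 of 61 arrays, no nearest genes are given.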

How the data were processed

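Scanner output of Agilent Feature Extraction 9.1.3.1 was deposited, with a background-subtracted intensity per spot that was not normalized between arrays, and with flags, and with a table of intensities that the authors normalized. From the deposited intensities, log2 values were averaged over unflagged spots and reduced by the 75th percentile of the array (signal 737.5 to 1919 units). Of 41174 probes, 35969 were tested: those well above background on at least 1 array, leaving out 604 with only flagged spots on an array. Probes were named through RefSeq accessions (22951 matched). The array design number in the files differs from that in the methods, and the files' was used. The median SD between spots of a probe was 0.06 (log2), which covers technical noise within an array only.

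The methods' one-way ANOVA over pairs was replaced by limma 3.58.1 in R 4.3.3 (lmFit and eBayes), because a pair holds 2 arrays. Calls were made at an adjusted p under 0.05. Region and peptide-peak differences were computed per mouse and tested over 6 mice. The tests were checked on simulated data. Figures used Python 3.11.15, pandas 2.3.3 and matplotlib 3.10.9.

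Fractions of 1 mouse are paired by the animal: deviations from the pair means had a median r of 0.279 over 129 combinations from the same mice and −0.026 over 249 from other mice. The members, gene lists and landmark markers were chosen with earlier results of these data known. The genes named are the members, examples of the landmark markers, markers of other tissue where they bear on a member, the genes of each pathway list with the 2 highest and the lowest F, and the 3 genes nearest to each member but Oprd1, which was detected on 2 arrays. Gene lists for pituitary, choroid plexus and blood were used to check for other tissue. The alternatives were other scalings, the authors' table, normexp with an offset of 50 on median signals with quantile normalization, other probe filters, second probes, blocks for mouse and slide, single planes, other rules for the fractions, tests without moderation, leaving out each array or mouse and, chosen after seeing the data, the scan day as a block.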

Additional observations from a re-analysis of the deposited data

Results flagged for a closer look

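Among 97 sets of 6 to 10 values scanned for an outlying value, 3 had one. The sets are profiles along a brain or reuse the same mice, so no chance rate is set beside this count. Penk was lowest in S1 (4.20), apart from the other S fractions. In the thalamus fractions, the H mouse was apart from the others for Pnoc (−0.37) and Oprl1 (−0.26).

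The planes were compared in 69 region and peak contrasts, Oprd1 not being scanned. In 26 comparisons of 2 planes, both mice of one plane were higher in the picked fraction and both mice of the other lower. The count expected by chance was not computed, so 26 is not read as an excess. The differences between planes were not tested. In the cortex fractions the coronal mice exceeded the sagittal and the horizontal ones by 1.64 and 2.37 for Penk and by 2.18 and 2.49 for Pdyn. There, the sagittal and coronal mice exceeded the horizontal ones by 3.50 and 3.91 for Oprk1 and by 0.65 and 0.59 for Oprl1. In the hippocampus fractions the coronal mice exceeded the sagittal and the horizontal ones by 0.84 and 0.71 for Pnoc, 0.43 and 1.44 for Oprk1 and 0.88 and 0.72 for Oprl1. In the thalamus fractions, horizontal exceeded sagittal mice by 0.59 for Penk, and coronal exceeded sagittal mice by 1.32 for Pdyn. For Penk in the midbrain dopamine fractions, horizontal exceeded coronal mice by 2.82.

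In the olfactory bulb fractions horizontal exceeded coronal mice by 0.60 for Pnoc, 1.67 for Oprm1, 1.73 for Oprk1 and 1.12 for Oprl1, and sagittal exceeded coronal mice by 1.38 for Oprm1. At the Pnoc peaks the coronal and horizontal mice exceeded the sagittal ones by 0.87 and 1.18 for Penk and by 0.85 and 1.04 for Pdyn.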

How the results depend on the processing

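Of the 7 members, 6 varied over the pairs, and 5 to 7 did under the alternatives (5 with second probes and with the coronal pairs alone, and 5 of 5 with only probes detected on all arrays, which leaves out Oprm1 and Oprd1), except for the sagittal pairs alone, with 2 (Penk and Pnoc; the share of all probes there was not computed). With the mouse as a replicate block 6 varied (F = 17.4 for Penk), and the block changed no call. The 3 calls in the region fractions became 7 with normexp and quantile normalization, with the first marker alone and with the top 2 fractions, 6 with only probes detected on all arrays, 1 without moderation, and 0 to 2 without 1 mouse. The 2 receptor calls at the peptide peaks became 3 with normexp and quantile normalization, 1 with second probes and 0 to 2 without 1 mouse. The 5 calls between mice became 3 with normexp and, since Oprm1 is left out, with only probes detected on all arrays. They became 2 with the slide as a random block, and without 1 array they stayed at 5. The shares of all tested probes called under the alternatives are not given, so changes in these counts are not read as particular to the members. Among called values, signs reversed for Penk in the medulla fractions with only probes detected on all arrays (−0.52, where fewer markers pick the fraction and the 4 other members tested turned too), and with second probes for Oprl1 in So against S (0.25, called there only) and for Co against C in Pnoc (−0.26) and Oprl1 (−0.45), the cause of which was not tested. Oprd1 was called over the pairs with the authors' table (adjusted p = 0.0498), normexp (0.0227), the scan day as a block (0.0199) and the horizontal pairs alone (0.0171), and without C8, C13, Co9 or Co15. Signal near background limits Oprm1 and Oprd1.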
